A study of Mus musculus with 14 samples.

Results

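Nuclear receptors are transcription factors that most often act in the nucleus, where many of them are switched on by small fat-soluble molecules such as steroid and thyroid hormones, vitamin D, retinoic acid, fatty acids and bile acids. In the kidney, members of the family drive fatty acid oxidation in the proximal tubule, salt handling in the distal nephron, vitamin D and phosphate balance and the response to glucocorticoids. Here 45 nuclear receptor genes, listed by name, were followed among 49943 RefSeq genes on the autosomes, X and Y. All 45 were found in the annotation. For each gene, H3K9cr and H3K9ac peaks were measured within 3 kb of either gene end and over the gene body. H3K9cr and H3K9ac are crotonylation and acetylation of lysine 9 of histone H3, and both mark active promoters and enhancers.

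The 14 peak lists came from ChIP-seq of mouse kidney, 8 for H3K9cr and 6 for H3K9ac. WT and ACSS2-/- mice were compared, each with control kidneys and with kidneys after UUO (unilateral ureteric obstruction), a surgical model of kidney fibrosis. ACSS2 makes acetyl-CoA and crotonyl-CoA from acetate and crotonate. According to the results of the paper, ACSS2-/- mice carried a global deletion made with CRISPR/Cas9, so no kidney cell type was spared. The methods name C57BL/6 J as the strain, and do not say how long after surgery the kidneys of these libraries were taken. The labels do not say whether controls had sham surgery. There were 2 libraries per genotype and operation for H3K9cr, 2 per genotype for H3K9ac after UUO, and 1 per genotype for H3K9ac in control kidneys. Nothing in the labels says that replicates were separate mice, so p-values measure the spread between these libraries, which may be technical.

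Each list gives peak positions only, so the number of bases covered by peaks is the measure used throughout, and read depth is unknown. A list held between 15988 and 45014 peaks, which covered between 17.7 and 64.6 Mb. H3K9ac lists after UUO were the shortest, at 15988 to 24571 peaks against 25585 and 32760 in control kidneys, and replicate 2 of ACSS2-/- UUO stood apart as the longest of these 4. Peaks on the Y chromosome were present in 8 of the 14 lists, and the number in the peak names differed from the replicate number of the label in 4. What that number stands for is not stated. At the ends of Acss2 itself, peaks covered a median of 1279 bases in the 7 WT and 1229 in the 7 ACSS2-/- libraries, and peak positions outside an edited exon do not check the deletion. Of 12 proximal tubule marker genes, 12 were covered at their ends in at least 2 libraries, while the liver gene Alb and the pancreatic gene Ins2 had no covered base in any library. The other 4 of 6 marker genes listed for tissues other than kidney, among them the leukocyte gene Cd4, were covered in part. Their H3K9cr summed to 2.85 to 5.36 kb in a library. The podocyte gene Nphs1 had no covered base in any library.

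The members differ in the base composition of their promoters, and the promoters on which the results below turn are shown for this reason. Each is a 300-base stretch from RefSeq (GRCm38.p6), with 250 bases before and 50 after an annotated start, 5′ to 3′ on the strand of the gene. Capitals mark CG pairs (CpG), the dinucleotide that is dense in CpG islands. The first 3 belong to Ppara (the fatty acid receptor PPARα; chr15:85735526-85735825, plus strand) and to the orphan receptor gene Esrrg, at its 5′ start (chr1:187608756-187609055, plus) and at a start 43.2 kb inside the gene (chr1:187651508-187651807, plus).
Ppara: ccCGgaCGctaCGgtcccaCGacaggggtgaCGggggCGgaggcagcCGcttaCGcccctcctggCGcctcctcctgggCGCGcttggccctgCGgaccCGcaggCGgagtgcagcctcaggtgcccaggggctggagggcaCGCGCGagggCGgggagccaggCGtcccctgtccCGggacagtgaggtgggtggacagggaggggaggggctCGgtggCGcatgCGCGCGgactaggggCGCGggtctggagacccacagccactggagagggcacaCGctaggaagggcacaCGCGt
Esrrg, 5′ start: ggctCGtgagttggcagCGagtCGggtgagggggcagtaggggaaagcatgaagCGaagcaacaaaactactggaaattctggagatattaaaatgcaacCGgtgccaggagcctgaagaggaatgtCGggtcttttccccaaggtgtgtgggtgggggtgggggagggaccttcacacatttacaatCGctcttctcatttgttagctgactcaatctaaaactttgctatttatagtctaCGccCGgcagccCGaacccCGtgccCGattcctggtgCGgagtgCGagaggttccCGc
Esrrg, internal start: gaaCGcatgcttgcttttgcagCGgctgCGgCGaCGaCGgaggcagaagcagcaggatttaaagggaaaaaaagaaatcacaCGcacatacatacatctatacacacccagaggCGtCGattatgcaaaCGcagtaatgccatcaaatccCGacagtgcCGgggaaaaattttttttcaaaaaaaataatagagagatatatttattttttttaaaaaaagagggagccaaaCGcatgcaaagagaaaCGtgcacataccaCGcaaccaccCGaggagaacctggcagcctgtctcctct
The next 2 belong to Hnf4a, the gene of a master factor of the proximal tubule and liver, at its 5′ start (chr2:163506607-163506906, plus) and at a start 40.3 kb inside (chr2:163546905-163547204, plus).
Hnf4a, 5′ start: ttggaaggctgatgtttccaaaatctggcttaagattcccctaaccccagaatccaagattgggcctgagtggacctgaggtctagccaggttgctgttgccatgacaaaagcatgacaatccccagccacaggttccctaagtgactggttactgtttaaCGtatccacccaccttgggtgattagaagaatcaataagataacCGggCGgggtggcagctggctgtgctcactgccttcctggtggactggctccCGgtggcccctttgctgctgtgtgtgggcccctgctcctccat
Hnf4a, internal start: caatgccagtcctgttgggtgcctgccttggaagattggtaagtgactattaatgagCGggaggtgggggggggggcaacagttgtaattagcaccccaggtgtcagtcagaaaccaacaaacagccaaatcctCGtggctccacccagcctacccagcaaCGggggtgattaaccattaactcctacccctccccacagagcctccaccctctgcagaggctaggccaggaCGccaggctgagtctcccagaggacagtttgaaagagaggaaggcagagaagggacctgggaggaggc
The last 2 belong to Nr1i2, the gene of the xenobiotic receptor PXR (chr16:38294775-38295074, minus), and to Nr0b2, the gene of the bile acid-induced repressor SHP (chr4:133553126-133553425, plus).
Nr1i2: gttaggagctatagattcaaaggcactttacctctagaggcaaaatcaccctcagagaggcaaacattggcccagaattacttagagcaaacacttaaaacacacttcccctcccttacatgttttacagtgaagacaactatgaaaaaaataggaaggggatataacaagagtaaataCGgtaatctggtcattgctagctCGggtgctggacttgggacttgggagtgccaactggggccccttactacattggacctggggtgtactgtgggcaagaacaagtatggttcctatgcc
Nr0b2: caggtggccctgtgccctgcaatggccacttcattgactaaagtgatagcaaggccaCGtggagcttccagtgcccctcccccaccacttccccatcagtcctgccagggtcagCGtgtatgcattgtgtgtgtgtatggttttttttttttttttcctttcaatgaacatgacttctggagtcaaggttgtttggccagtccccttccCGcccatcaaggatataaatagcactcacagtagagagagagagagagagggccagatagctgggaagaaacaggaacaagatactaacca
Ppara has 30 CpG in this stretch and the Esrrg starts have 15 and 16, against 4 at each Hnf4a start, 2 at Nr1i2 and 3 at Nr0b2. A peak lay within 1 kb of the start in all 14 libraries at Ppara, at the 5′ start of Esrrg and at the internal start of Hnf4a, in 11 at the internal start of Esrrg and at Nr0b2, in 9 at Nr1i2 and in none at the 5′ start of Hnf4a. The RefSeq table held 62 promoters of 41 members. The median number of CpG was 19 in the 37 of them with a peak in all 14 libraries, 12 in 13 with a peak in some and 4.5 in 12 with none. Over all 32851 promoters of the table, these medians were 23, 7 and 3, so member promoters followed the order seen across the genome. The hexamer AGGTCA, a core that many nuclear receptors bind, was searched on both strands and was found in 11 of the 62 member promoters (17.7%) and in 16.3% of all promoters. It was absent from the 7 promoters shown, which says only that these letters are not in these stretches.

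Most of the family carried both marks at gene ends in the kidney. H3K9cr was present in all 8 libraries at 31 of the 45 genes (68.9%), against 31.2% of all genes and 53.8% of protein-coding genes. For H3K9ac, 26 members (57.8%) had a peak in all 6 libraries, against 27.6% and 49.8%. In all 14 libraries together, 26 members (57.8%) were covered, against 27.1% of all genes and 48.9% of protein-coding genes. A further 6 members (13.3%) were covered in none, against 51.9% and 30.8%. Those 6 were Rarb (a retinoic acid receptor), Rxrg (a retinoid X receptor of muscle and brain), Nr2e1 and Nr2e3 (tailless and the photoreceptor factor PNR), Nr5a1 (the steroidogenic factor SF-1) and Nr5a2 (LRH-1). Rorb, a receptor of retina and brain, had 1 peak of 711 bases in the ACSS2-/- control H3K9ac library and none elsewhere. Across the 45 genes, 38 had a peak in at least 2 libraries and entered the test at gene ends. These levels are bases and not signal, and they also depend on how many starts and neighbours lie in the window.

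**Figure D1:**
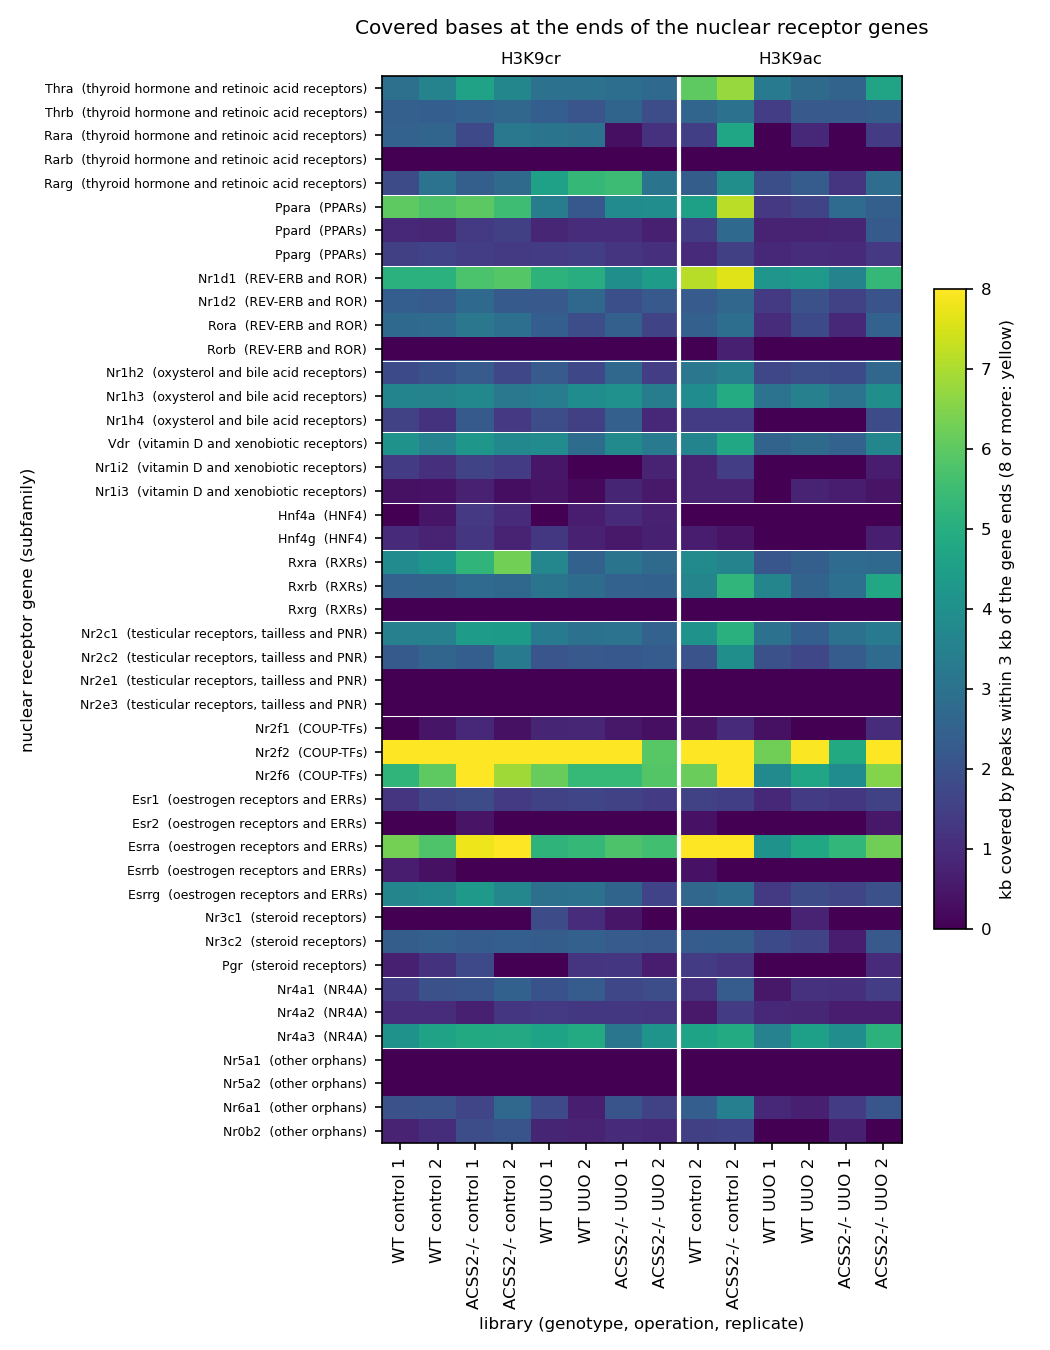
Bases covered by peaks within 3 kb of either end of each of the 45 nuclear receptor genes (rows, by subfamily) in each of the 14 libraries (columns, H3K9cr left and H3K9ac right), as colour in kb on a linear scale that ends in yellow at 8 kb or more. The 26 genes covered in all 14 libraries, Nr2f2 among them at 4874 to 11503 bases, stand against the 6 rows without any peak.

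Within subfamilies, coverage was uneven. Among the thyroid hormone and retinoic acid receptors, Thra, Thrb, Rara and Rarg carried peaks, and Rarb had none at its ends but was covered in all 14 libraries (1033 to 1621 bases) around a start 507 kb inside the gene. All 3 PPAR genes were covered in every library. The clock repressors Nr1d1 and Nr1d2 and the clock activator Rora were covered in every library, as were the oxysterol receptors Nr1h2 and Nr1h3 (LXRβ and LXRα). Nr1h4, which encodes the bile acid receptor FXR, had H3K9cr in 8 of 8 and H3K9ac in 3 of 6 libraries. Vdr, the vitamin D receptor gene, was covered in 14 and Nr1i2 in 9. The peaks counted for Nr1i3 (the xenobiotic receptor CAR, 13 libraries) all lay at its 3′ end, where Apoa2 begins, and none at its 5′ end. Rxra and Rxrb, partners of many other receptors, were covered in every library. The widest coverage was at Nr2f2, the gene of COUP-TFII, with 5937 to 10083 bases of H3K9cr and 4874 to 11503 of H3K9ac. The oestrogen receptor gene Esr1 was covered in 14 libraries and Esr2 in 3. The steroid receptor genes split, with Nr3c2 (the mineralocorticoid receptor) covered at its ends in 14, the progesterone receptor gene Pgr in 9 and Nr3c1 (the glucocorticoid receptor) in 4. Nr3c1 was nonetheless covered over its body in every library, with 2918 to 8805 bases. The immediate early genes Nr4a1, Nr4a2 and Nr4a3 and the orphan Nr6a1 were covered in every library. Members whose window holds the start of another gene share their peaks with it, and this applies among others to Nr1h2 (Pold1), Nr1h3 (Madd and Acp2), Rxrb (Slc39a7 and Col11a2), Nr2c1 (Ndufa12), Nr2f6 (Ocel1) and Esrra (Prdx5 and Trmt112). The annotated ends of Thra and Nr1d1 overlap each other.

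After UUO, H3K9cr covered fewer bases at the ends of 6 receptor genes and more at 1. Ppara, Rxra, Esrrg, Esrrb, Nr2c1 and Esrra were lower and Nr3c1 was higher, in limma over all genes at an adjusted p under 0.05. These were 7 of 38 members, against 12.1% of all 21746 genes tested. In the lower direction there were 6 members against 9.53% of all genes, and in the higher direction 1 against 2.6%. The median log2 difference (UUO minus control) was -0.16 over the members and -0.12 over all genes. When each library was centred on its own median, these medians were -0.02 and 0.02. The members past the threshold were then 2 higher and 4 lower, beside 1169 higher and 1587 lower of all 21746 genes. The share of higher calls among all calls went from 21.4% to 42.4% across the genome. The number of members called also rested on single libraries, with 2 past the threshold without WT UUO replicate 1, without WT UUO replicate 2 or without WT control replicate 2, and 3 or 4 without any other H3K9cr library.

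Ppara had the smallest p among the members. Its gene-end H3K9cr covered 6001 and 5764 bases in WT control, 5969 and 5529 in ACSS2-/- control, 3364 and 2196 in WT UUO and 3852 and 3927 in ACSS2-/- UUO kidneys. Every UUO library lay below every control library. The mean fell from 5816 ± 218 to 3335 ± 799 bases (SD, n = 4 each), a log2 difference of -0.75 (SE 0.12, limma adjusted p = 0.00642). All of these peaks lay at the 5′ end. The 2001 bases around the annotated start were fully covered in 7 of the 8 H3K9cr libraries, and in the narrower window of 1 kb the log2 difference was -0.12 with an adjusted p of 0.503. Most of the lost bases thus lay outside these narrower windows.

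Rxra, whose product pairs with PPARα, FXR, the vitamin D receptor and many others, covered 3849 and 4218 bases in WT control and 5238 and 6311 in ACSS2-/- control kidneys. After UUO it covered 3707 and 2477 in WT and 3065 and 2770 in ACSS2-/- kidneys. The groups did not overlap, although WT UUO replicate 1 lay close to the lowest control. The log2 difference was -0.61 (SE 0.12, adjusted p = 0.0135), and it missed the threshold in 6 of 27 alternatives, at adjusted p values up to 0.487. Esrrg, which encodes the oestrogen-related receptor ERRγ, a driver of mitochondrial genes, covered 3648, 3823, 4308 and 3693 bases in the controls, WT first. After UUO it covered 2947, 2996, 2572 and 1613 (log2 difference -0.55, SE 0.14, adjusted p = 0.0331). The UUO libraries were again all lower, but the call was lost in 11 of 27 alternatives.

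The other 3 falls were small or sparse. Esrra, the gene of ERRα, fell from 6338, 5784, 7797 and 8469 bases to 5199, 5322, 5761 and 5586 (log2 difference -0.33, SE 0.09, adjusted p = 0.0492). Its 3′ window is shared with Prdx5 and Trmt112, and the call was lost in 19 of 27 alternatives and turned to 0.08 in another, in which a peak counted only with at least 50% of its length inside. Nr2c1, the gene of the testicular receptor TR2, fell from 3484, 3471, 4415 and 4344 to 3331, 2997, 3036 and 2508 bases (log2 difference -0.35, SE 0.09, adjusted p = 0.0409). Esrrb (ERRβ) was covered at its ends by 652 and 350 bases in WT control and by none in the other 6 H3K9cr libraries. Its log2 difference was -0.49 (SE 0.13, limma adjusted p = 0.0398), and both covered libraries were WT. None of these 3 passed the threshold after centring, with adjusted p values of 0.218, 0.233 and 0.271.

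Nr3c1 had no H3K9cr base at its ends in the 4 control libraries. After UUO, 1817 and 1027 bases were covered in WT kidneys and 486 and 0 in ACSS2-/- kidneys. The peaks lay at the end with the higher coordinates. The log2 difference was 1.20 (SE 0.32, adjusted p = 0.0447; 1.34 and 0.0143 after centring). It kept its direction in all 25 alternatives and passed in 9. H3K9ac was present there in 1 of 6 libraries, with 764 bases in WT UUO replicate 2.

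A further 3 members did not overlap between the groups or came near the threshold. Rarg, the retinoic acid receptor gene of epithelia, was covered by 1841, 3037, 2423 and 2780 bases in control and 4586, 5333, 5481 and 3071 in UUO libraries (log2 difference 0.75, adjusted p = 0.0871; 0.89 and 0.0105 after centring). The difference lay at its 3′ end, beside the end of the integrin gene Itgb7, where the 4 controls had none and the UUO libraries had 2302, 1865, 2061 and 576 bases. Rora covered 2749 to 3181 bases in control and 1650 to 2442 in UUO libraries (log2 difference -0.41, adjusted p = 0.345). Nr1i2 covered 1387, 1099, 1653 and 1398 bases in control and 484, 0, 0 and 759 in UUO libraries, and its log2 difference of -1.33 (SE 0.38) had an adjusted p of 0.0535, or 0.0454 after centring. In all, 8 members did not overlap between the groups, 7 lower and 1 higher, against 15.6%, 13.3% and 2.29% of all genes. No member had a peak in all 4 UUO libraries and no control (0.69% of all genes) or in all 4 controls and no UUO library (0.773%).

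The other 28 members tested at gene ends overlapped between the groups and did not pass. The thyroid hormone receptor genes Thra and Thrb had 2952 to 4608 and 2389 to 2651 bases in control and 2738 to 2999 and 1879 to 2565 in UUO libraries (adjusted p = 0.299 and 0.533). Pparg, the PPARγ gene of fat and collecting duct, had 1357 to 1606 in control and 1071 to 1475 in UUO libraries (adjusted p = 0.494). Vdr had 3550 to 4229 and 2839 to 3874 (adjusted p = 0.511). In each of these 4 genes, the lowest library was a UUO library and the ranges of the groups overlapped. In Nr4a2, an immediate early gene, the highest was a UUO library, with 707 to 1270 bases in control and 1201 to 1345 in UUO libraries (adjusted p = 0.327). The oxysterol receptor genes Nr1h2 and Nr1h3 had log2 differences of 0.03 and 0.05, Rxrb of 0.04 and Esr1 of 0.04, each with an adjusted p above 0.8. Nr3c2 had a log2 difference of -0.02. Nr1h4 was wide within both groups, at 1167 to 2250 and 923 to 2460 bases, while Hnf4a had at its 3′ end 0 to 1328 in control and 0 to 984 in UUO libraries. Nr0b2 had 790 to 2082 bases in control and 783 to 989 in UUO libraries (log2 difference -0.45, adjusted p = 0.311), where the 2 ACSS2-/- controls were the high ones at 1900 and 2082.

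**Figure D2:**
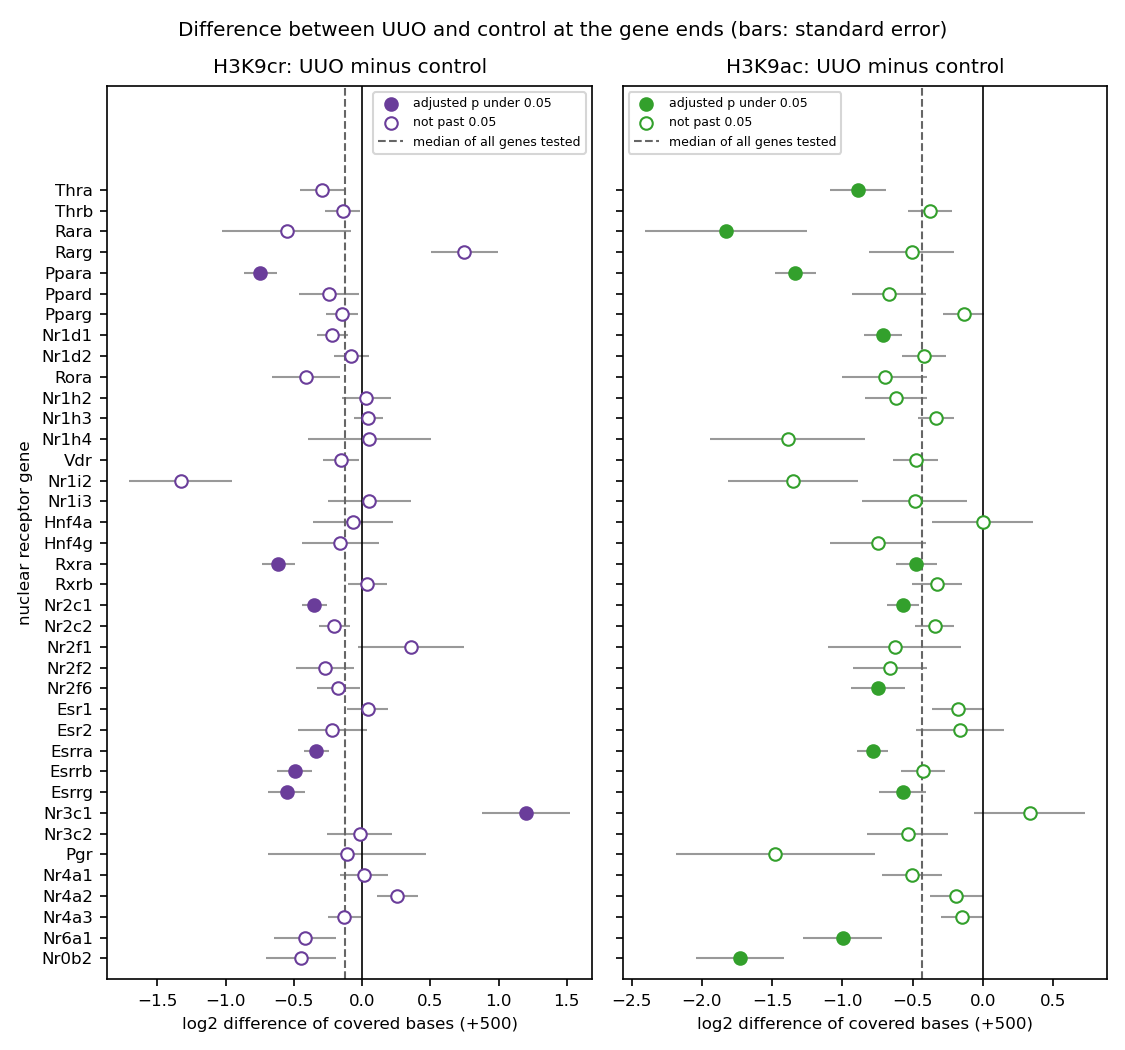
Log2 difference in covered bases, UUO minus control, with its standard error, for the 38 members tested at gene ends and each mark, where filled points are past an adjusted p of 0.05 and the dashed line is the median of all genes tested. H3K9ac differences lie further to the left than those of H3K9cr, as do the dashed lines (-0.43 and -0.12).

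Over the whole gene with 3 kb either side, the falls in H3K9cr were larger and reached further members. Of the 41 members tested, 9 were lower and none was higher, against 16.9% of all 23078 genes in either direction and 13.8% lower. After centring, 9 were lower and none was higher, beside 2570 lower and 1610 higher of all 23078 genes. These were not the same 9, since Esrra no longer passed (limma adjusted p = 0.165). Groups did not overlap, with UUO lower, at 15 members, against 16.3% of all genes. The median log2 difference was -0.27 over the members and -0.15 over all genes. The number called was 5 without ACSS2-/- UUO replicate 2 of H3K9cr and 5 without ACSS2-/- control replicate 1.

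Esrrg had the largest log2 difference among the 9. Its 606 kb held 21155 and 14899 covered bases in WT control, 32889 and 21584 in ACSS2-/- control, 8897 and 5415 in WT UUO and 6151 and 3933 in ACSS2-/- UUO kidneys. All 4 UUO libraries lay below all 4 controls. The log2 difference was -1.81 (SE 0.26, adjusted p = 0.00273), and it passed in all 24 alternatives. At the internal start printed above, the 4 controls had 1200, 1614, 1696 and 1581 of 2001 bases covered and the 4 UUO libraries 411, 340, 363 and 449 (log2 difference -1.18, SE 0.20, adjusted p = 0.0188, a test added after the data were seen). At the 5′ start the covered bases were 2001 in each control and 2001, 1492, 1551 and 1324 after UUO, with an adjusted p of 0.118. Of 49 member starts tested, 4 were lower, against 4.59% of all 16694 starts in either direction and 3.21% lower. The others were a neighbouring start 43.7 kb inside Esrrg, the 5′ start of Esrrb and a start 27.0 kb inside Nr1h4. The windows of both internal Esrrg starts overlap and hold the same covered bases in each UUO library, so they are not separate results in either mark. The 5′ start of Esrrb did not pass after centring (limma adjusted p = 0.208). A second start 60.5 kb inside Esrrb was covered in all 14 libraries and did not pass (log2 difference -0.57, limma adjusted p = 0.203).

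**Figure D3:**
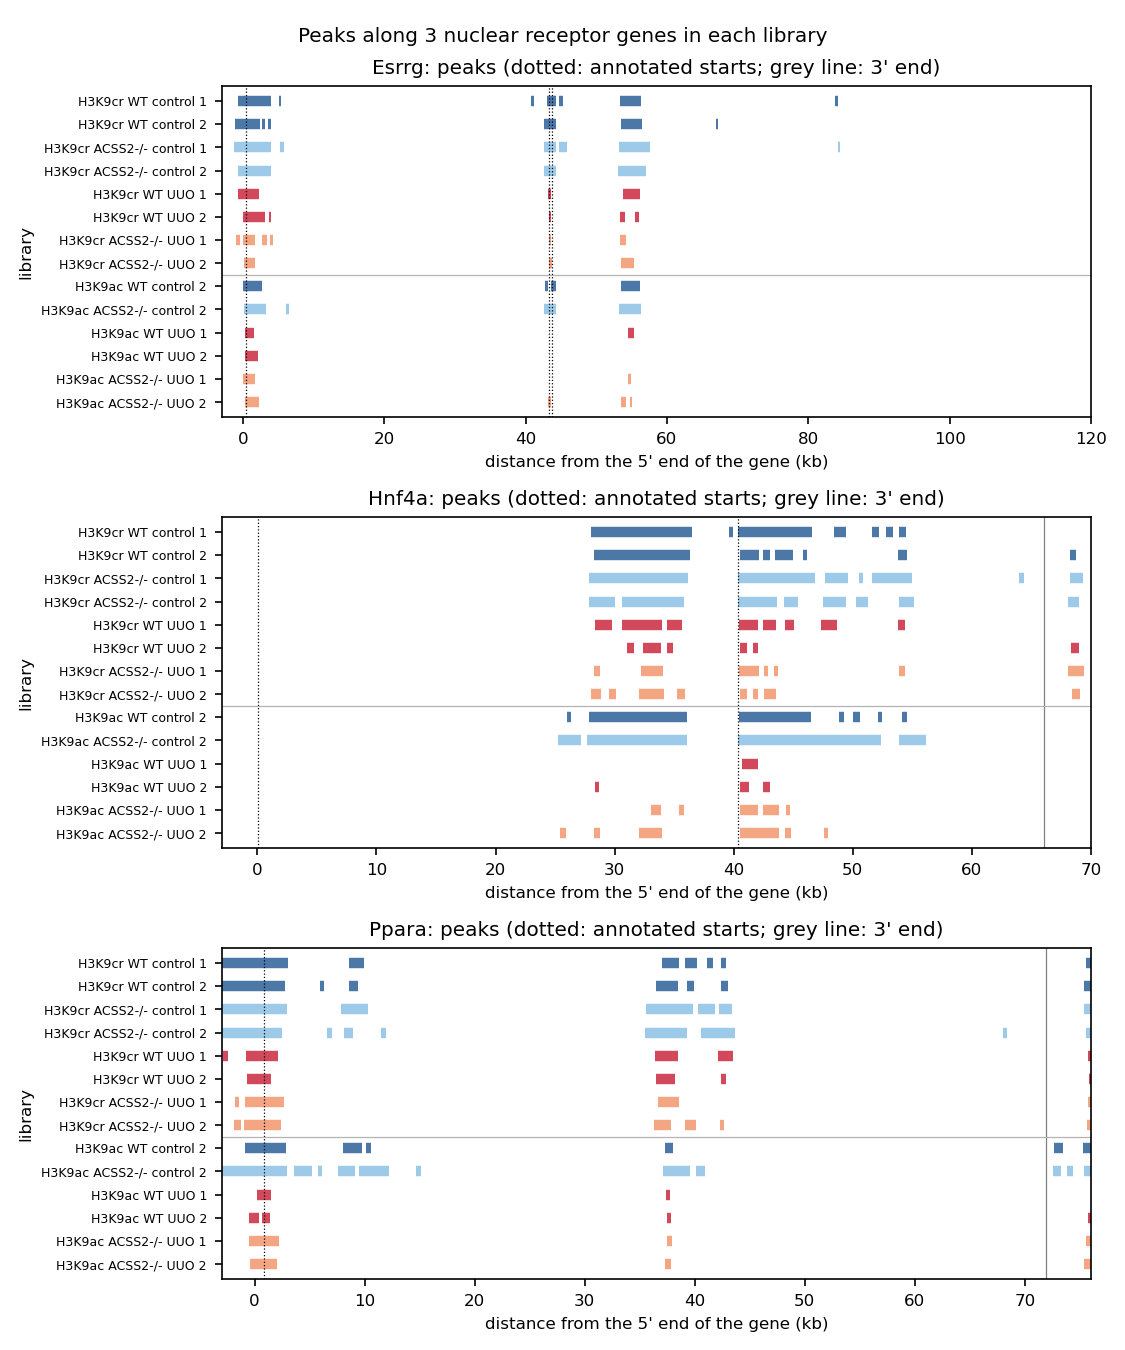
Peaks along the first part of Esrrg and along Hnf4a and Ppara in each of the 14 libraries (rows), as bars against the distance in kb from the 5′ end of the gene, with annotated starts as dotted lines. At Esrrg the promoter peak is present in every library. In H3K9cr the peaks near 43 kb and from about 53 kb remain after UUO. The one near 43 kb is narrower, as from 43.221 to 43.631 kb in WT UUO replicate 1 against 43.049 to 44.324 kb in WT control replicate 1. The whole gene, of which only the first part is shown, held 14899 to 32889 bases in H3K9cr control libraries.

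Hnf4a and Hnf4g, the genes of the HNF4 receptors of tubular epithelium, also fell. Hnf4a covered 17874, 13314, 21804 and 16964 bases in control and 11552, 4202, 6155 and 7004 in UUO libraries (log2 difference -1.28, SE 0.29, adjusted p = 0.0192). Around its internal start the values ran from 856 to 1298 in control and from 561 to 885 in UUO libraries, with an adjusted p of 0.35, a small part of the bases by which the gene differed. Hnf4g covered 3446, 3071, 4796 and 3040 bases in control and 1309, 729, 559 and 696 in UUO libraries (log2 difference -1.64, SE 0.28, adjusted p = 0.00603).

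Ppara over the whole gene went from 11028, 10245, 15259 and 14593 bases to 6830, 4431, 5695 and 6895 (log2 difference -1.04, SE 0.14, adjusted p = 0.00229). Rxra went from 13632, 18096, 25243 and 28040 to 12401, 6078, 7998 and 7881 (log2 difference -1.25, SE 0.27, adjusted p = 0.017). Both were again without overlap between control and UUO. Thrb, the thyroid hormone receptor β gene, kept its promoter peak at 1879 to 2651 bases in every H3K9cr library but fell over the gene from 3765, 7487, 11270 and 8745 bases to 2708, 2107, 2565 and 1879 (log2 difference -1.48, SE 0.22, adjusted p = 0.00362). In 3 of the 4 UUO libraries of Thrb, no base beyond the promoter window was covered. Esrrb went from 5784, 5171, 7822 and 3849 to 2711, 1180, 499 and 1429 bases (log2 difference -1.74, SE 0.32, adjusted p = 0.00823). Nr3c2, the mineralocorticoid receptor gene of the distal nephron, went from 7790, 10450, 8915 and 7432 to 4064, 4265, 4811 and 3723 (log2 difference -0.95, SE 0.24, adjusted p = 0.0273), while its gene ends stayed between 2246 and 2461 bases. Esrra, at 11 kb a short gene, had a log2 difference of -0.41 (adjusted p = 0.0364, and 0.165 after centring).

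**Figure D4:**
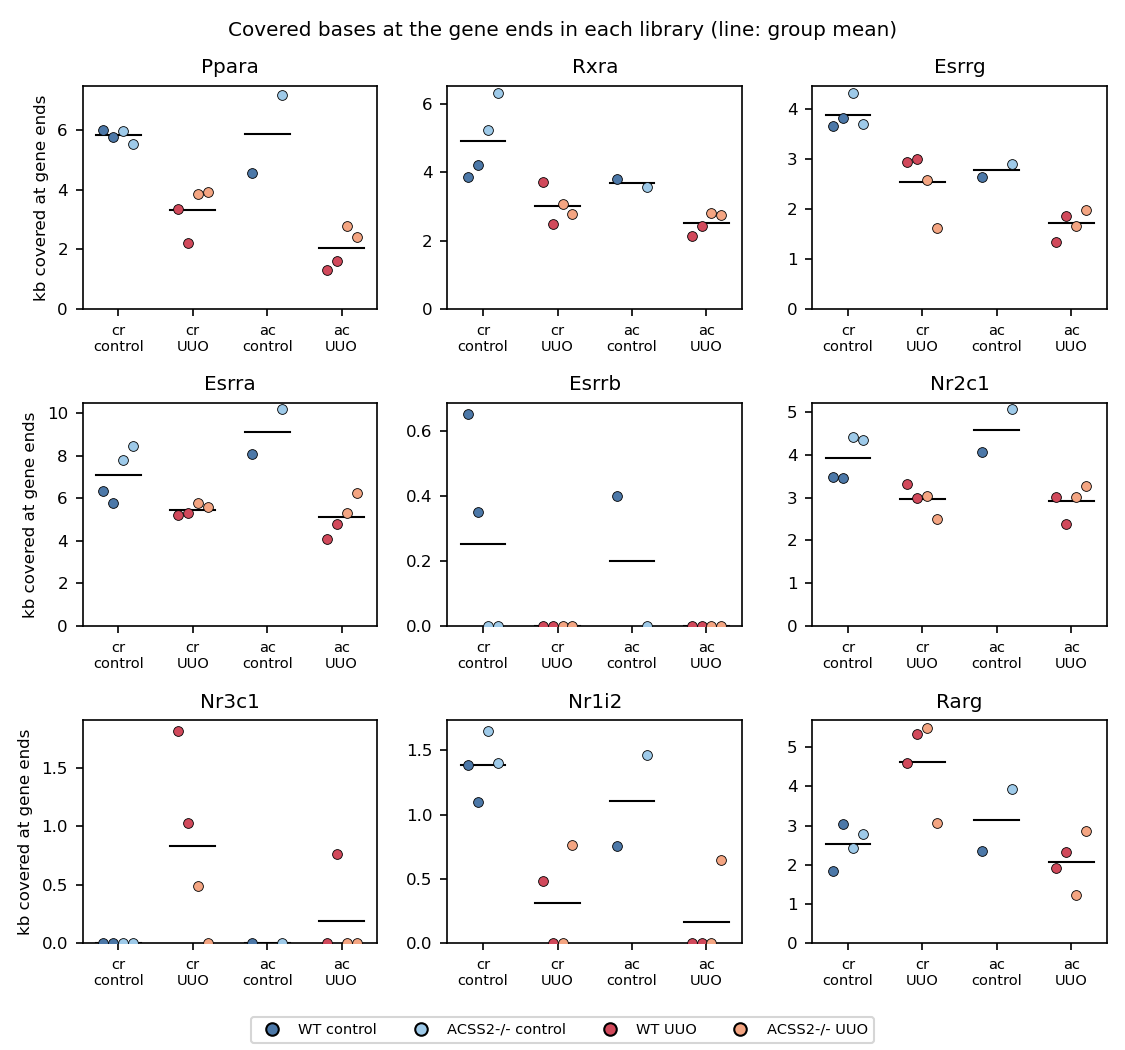
Kb covered by peaks at the gene ends of 9 members, with control and UUO side by side for each mark, where points are libraries coloured by genotype and operation and lines are the means of the points. For Ppara at its gene ends, all 4 UUO libraries of H3K9cr (2196 to 3927 bases) lie under all 4 controls (5529 to 6001).

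H3K9ac was lower after UUO at more members, and so it was across the genome. At gene ends, 11 of 38 members were lower and none was higher, against 26.8% of all genes in either direction, 26.5% lower and 0.258% higher. The median log2 difference was -0.55 over the members and -0.43 over all genes. After centring, these medians were -0.07 and 0.05, and 1 member, Ppara, was past the threshold. Across the genome, 659 genes were then lower and 245 higher, of 21746. The share of higher calls across the genome went from 0.962% to 27.1% with centring. The comparison has 4 UUO libraries and 2 controls, 1 per genotype, and each lone control was assumed to vary like the other groups. Without the ACSS2-/- control library 2 members were called, without the WT control library 4, without WT UUO replicate 1, 6, without ACSS2-/- UUO replicate 1, 7, and without ACSS2-/- UUO replicate 2, 22.

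Ppara led here too. Its gene ends had 4555 bases of H3K9ac in WT control and 7181 in ACSS2-/- control, against 1323 and 1625 in WT UUO and 2796 and 2409 in ACSS2-/- UUO kidneys. All 4 UUO libraries lay far under both controls. The log2 difference was -1.34 (SE 0.15, adjusted p = 0.00192; -0.85 and 0.0161 after centring), and the call held in all 27 alternatives. Part of it came from the 3′ end, where the controls had 856 and 1220 bases and UUO libraries none. That window also reaches the neighbouring gene Cdpf1, so these bases cannot be assigned to Ppara alone.

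The gene of SHP, Nr0b2, had 1517 and 1607 bases in the controls and 0, 0, 694 and 0 after UUO (log2 difference -1.73, SE 0.31, adjusted p = 0.00857). After centring its adjusted p was 0.083. Esrra went from 8079 and 10163 to 4091, 4770, 5302 and 6262 bases (log2 difference -0.79, SE 0.11, adjusted p = 0.00436). Nr1d1, the gene of the haem-binding clock repressor REV-ERBα, went from 7144 and 7607 to 4179, 4309, 3589 and 5336 (log2 difference -0.71, SE 0.14, adjusted p = 0.011), and Thra, which overlaps it, from 6027 and 6774 to 3259, 2763, 2540 and 4682 (log2 difference -0.89, SE 0.20, adjusted p = 0.0174). Peaks in their shared stretch count for both genes.

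There were 6 further calls at gene ends. Nr2c1 went from 4063 and 5080 bases to 2394 to 3266 (adjusted p = 0.0116), and Nr2f6, the COUP-TF relative EAR2, from 6180 and 10579 to 3815 to 6530 with overlap (adjusted p = 0.0256). Nr6a1, the germ cell nuclear factor gene, went from 2389 and 3448 to 689 to 2126 (adjusted p = 0.0336). Rara, the retinoic acid receptor α gene, went from 1477 and 4728 bases to 0, 878, 0 and 1432 (log2 difference -1.83, SE 0.58, adjusted p = 0.0466), while the starts 9.90 and 9.92 kb inside it were fully covered in all 14 libraries. Esrrg and Rxra had log2 differences of -0.57 and -0.47 (adjusted p = 0.0371 and 0.0441), which were -0.09 and 0.01 after centring. In all, 17 members did not overlap, each lower after UUO, against 40.8% of all genes. No member had H3K9ac in all UUO and no control libraries (0.129% of all genes) or the reverse (2.62%). Within WT alone, 7 of 38 members had it in the lone control and in neither UUO library, against 8.08% of all genes. Within ACSS2-/- this was 0 members, against 7.59%.

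Over the whole gene, 21 of 41 members were lower in H3K9ac after UUO and none was higher, against 29.6% of all genes in either direction and 29.4% lower. The groups did not overlap at 27 members, against 41.9%. Centring left 7 members, which were Ppara, Vdr, Hnf4a, Rxra, Esrra, Esrrb and Esrrg, beside 1209 lower and 308 higher of all 23078 genes. The median log2 difference was then -0.31 over the members and 0.06 over all genes. Before centring these medians were -0.85 and -0.49. The share of higher calls across the genome was 0.819% before and 20.3% after centring. The number of members called was 6 without the ACSS2-/- control library, 11 without the WT control library, 13 without WT UUO replicate 1 and 28 without ACSS2-/- UUO replicate 2.

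Hnf4a had 16349 and 24610 bases of H3K9ac in the controls and 1384, 1644, 4448 and 7010 after UUO (log2 difference -2.56, SE 0.36, adjusted p = 0.00316). Rxra had 20220 and 39209 in the controls and 3386, 4969, 4541 and 8574 after UUO (log2 difference -2.36, SE 0.34, adjusted p = 0.00331). Both genes had less in each WT UUO library than in ACSS2-/- UUO replicate 2, the longest of the UUO lists. Ppara went from 7452 and 17171 to 1724, 1966, 3227 and 2919 bases (log2 difference -2.04, SE 0.17, adjusted p = 0.000872). Vdr, expressed in the proximal and distal tubule, went from 10443 and 19575 to 4017, 5201, 3755 and 7365 (log2 difference -1.45, SE 0.26, adjusted p = 0.00718). Esrrg went from 7773 and 13887 to 2219, 1863, 2062 and 3763 (log2 difference -1.91, SE 0.31, adjusted p = 0.00518), and Esrrb from 6124 and 7431 to 498, 452, 1525 and 3040 (log2 difference -2.17, SE 0.39, adjusted p = 0.00756). At the internal start of Esrrg, H3K9ac covered 1033 and 1656 bases in the controls and 0, 0, 0 and 449 after UUO (log2 difference -1.63, SE 0.25, adjusted p = 0.00987). Of the 49 member starts, 6 were lower in H3K9ac, against 10.2% of all starts in either direction. After centring, the 2 internal starts of Esrrg passed (adjusted p = 0.018 and 0.0169), while those of Nr3c2 and Nr0b2 did not (0.057 and 0.102) and those of Thrb and Ppara had log2 differences of 0.04 and 0.01.

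The other 14 calls over the whole gene were Thra, Rarg, Ppard, Nr1d1, Nr1d2, Nr1h3, Nr1h4, Nr2c1, Nr2f6, Nr3c1, Nr3c2, Nr4a1, Nr6a1 and Nr0b2. Their log2 differences ran from -1.73 at Nr0b2 to -0.51 at Nr1h3, and none of them passed after centring. Nr1h3 had a log2 difference of 0.04 after centring. Nr3c1, which gained H3K9cr at 1 of its ends, went over its whole length from 7401 and 8805 bases of H3K9ac in the controls to 3025, 2918, 4333 and 5560 after UUO (log2 difference -0.98, SE 0.25, adjusted p = 0.0224, and 0.197 after centring). Ppard, the PPARδ gene, overlapped between the groups, since the 2 controls were far apart at 1824 and 13745 bases.

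The effects of UUO on H3K9cr and on H3K9ac were set against each other. For the difference between the marks, 0 of 38 members passed at gene ends, where 0.869% of all genes did, and 8 members had an unadjusted p under 0.05. The smallest p values belonged to differences, H3K9cr minus H3K9ac in the effect of UUO, of 1.28 at Nr0b2 (SE 0.40, adjusted p = 0.155), 1.26 at Rarg (SE 0.39, adjusted p = 0.152) and 0.59 at Ppara (SE 0.19, adjusted p = 0.163), on the log2 scale. Without ACSS2-/- UUO replicate 2 of H3K9ac 7 members passed, and without replicate 1, 1. Over the whole gene, 0 of 41 passed, against 1.0% of all genes. After centring 1 member passed, Thrb, where H3K9cr was the lower, with a difference of -1.41 (adjusted p = 0.0389) against -1.04 (adjusted p = 0.172) before. Of all 23078 genes, 212 were then lower and 66 higher.

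No member passed an adjusted p of 0.05 between ACSS2-/- and WT kidneys in limma, in either mark, at gene ends or over the whole gene. For H3K9cr after UUO, 0 of 38 members passed at gene ends, against 0.184% of all genes, and 4 had an unadjusted p under 0.05. For H3K9ac after UUO, 0 passed, against 0.0322%, and 4 had an unadjusted p under 0.05. For H3K9cr in control kidneys, 0 passed, against 0.685%, and 5 had an unadjusted p under 0.05. In that comparison 1 member passed without ACSS2-/- control replicate 2, WT control replicate 2 or either WT UUO library of H3K9cr. The median log2 difference (ACSS2-/- minus WT) was -0.07 over the members and -0.08 over all genes for H3K9cr after UUO. It was 0.23 and 0.13 for H3K9ac after UUO, and 0.11 and 0.15 for H3K9cr in control kidneys. Over the whole gene, 0 members passed in each of the 3 comparisons, against 0.204%, 0.026% and 0.65% of all genes.

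Some members did not overlap between the genotypes, as did many genes across the genome. For H3K9cr after UUO, 19 of 38 members did not overlap between genotypes, against 31.5% of all genes. Of these, 14 were lower in ACSS2-/- (23.8% of all genes) and 5 higher (7.64%). For H3K9ac after UUO there were 8 members, against 25.9%, with 7 higher (23.6%) and 1 lower (2.29%). For H3K9cr in control kidneys there were 17, against 41.4%, with 15 higher (36.7%) and 2 lower (4.76%). Ppara was higher in ACSS2-/- UUO kidneys in both marks without overlap, by 0.44 for H3K9cr (3852 and 3927 against 3364 and 2196 bases, SE 0.17, adjusted p = 0.664) and by 0.65 for H3K9ac (2796 and 2409 against 1323 and 1625, SE 0.17, adjusted p = 0.255), on the log2 scale. Around its start, H3K9ac covered 2001 bases in both ACSS2-/- and 1323 and 1218 in the WT UUO libraries (log2 difference 0.50, adjusted p = 0.0284), and this was 1 of 49 member starts against 0.761% of all starts. It did not pass after centring (0.38, adjusted p = 0.158). Rara and Nr3c1 were lower in ACSS2-/- UUO kidneys in H3K9cr, with 339 and 1129 against 3064 and 2983 bases for Rara (adjusted p = 0.779) and 486 and 0 against 1817 and 1027 for Nr3c1 (adjusted p = 0.478). The H3K9cr peak at the 5′ end of Esrrb in WT control libraries was absent from both ACSS2-/- control libraries, a loss seen at 0.405% of all genes. The log2 difference was -0.98 (SE 0.18, limma adjusted p = 0.057), and the window also holds the start of the noncoding RNA gene Gm40483. Around the 5′ start of Esrrb this difference had an adjusted p of 0.0482, or 0.198 after centring. It was 1 of 49 member starts, against 0.521% of all starts. The start 60.5 kb inside Esrrb was covered in all 14 libraries. In control kidneys it had 1272 and 1798 bases of H3K9cr in WT and 1808 and 1564 in ACSS2-/- libraries (log2 difference 0.11). Within WT alone, the UUO comparison at gene ends called Ppara and Esrrb for H3K9cr (3.47% of all genes) and Ppara and Esrra for H3K9ac (2.81%). Within ACSS2-/- it called Rxra, Nr2c1 and Esrrg for H3K9cr (7.8%) and Ppara, Nr1d1, Nr2c1 and Esrra for H3K9ac (10.2%). Each of the H3K9ac comparisons within a genotype sets 2 UUO libraries against 1 control, which was assumed to vary like the other groups. After centring, Ppara and Nr3c1 (higher) passed for H3K9cr in WT, beside 567 lower and 659 higher of all 21746 genes. In the other 3 of these comparisons 0 members passed. The difference of the UUO effect on H3K9cr between genotypes was past the threshold at 0 of 38 members, against 0.106% of all genes, with 2 members at an unadjusted p under 0.05. The whole-gene count was 0 of 41, against 0.0477%.

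The marks themselves were compared over the 4 groups, with 8 H3K9cr and 6 H3K9ac libraries. At gene ends, 4 of 38 members differed, against 16.2% of all genes. Hnf4a, Hnf4g and Esrrg had more H3K9cr, and Rxrb had more H3K9ac. Hnf4a had H3K9cr at its 3′ end at a lowest, median and highest of 0, 683.5 and 1328 bases and no H3K9ac in any library (log2 difference 1.05, SE 0.23, adjusted p = 0.0193). Hnf4g had 559, 784.5 and 1309 bases of H3K9cr against 0, 218 and 667 of H3K9ac (log2 difference 0.77, SE 0.22, adjusted p = 0.0472). Rxrb, which shares its windows with Slc39a7 and Col11a2, had 2496, 2624 and 3082 of H3K9cr against 2553, 3647.5 and 5253 of H3K9ac (log2 difference -0.46, SE 0.12, adjusted p = 0.0304). Pooled over operations, the marks overlapped at each of these genes. After centring, 6 members were higher and 2 lower in H3K9cr, beside 3666 higher and 1361 lower of all 21746 genes. The count was 7 and 8 without ACSS2-/- UUO replicate 1 and 2 of H3K9ac, and 1 or 2 without WT UUO replicate 1 of H3K9ac or any H3K9cr library but WT UUO replicate 2.

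Over the whole gene, 10 of 41 members differed between the marks, against 21.6% of all genes, 9 with more H3K9cr (16.6%) and 1 with more H3K9ac (5.05%). Rora, the gene of the clock activator RORα, is an example. It covered 7821, 13933.5 and 27601 bases of H3K9cr (lowest, median and highest) against 3011, 5662 and 9124 of H3K9ac (log2 difference 1.32, SE 0.24, adjusted p = 0.00602). The others with more H3K9cr were Hnf4g (1.51, SE 0.22, adjusted p = 0.00261), Esrrg (1.08, SE 0.20, adjusted p = 0.00748), Esr1 (0.70), Nr3c2 (0.66), Ppara (0.64), Vdr (0.59), Thrb (0.58) and Nr4a1 (0.52). Each H3K9ac list held fewer peaks than each H3K9cr list of its group, and with the same number of longest peaks taken from each library 6 members differed. Without any of the 8 H3K9cr libraries, WT UUO replicate 1 of H3K9ac or the ACSS2-/- control library of H3K9ac, the count was 4 to 6.

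At gene ends, the genes that nuclear receptors act through moved unevenly after UUO. Of 18 coregulators (coactivators such as Ncoa1 and Ep300, corepressors such as Ncor1), 1 fell in H3K9cr, Ncoa4, and none rose, with a median log2 difference of -0.10. Of the PPARα targets, 12 of 17 tested fell in H3K9cr and none rose, among them Acadm (medium-chain fatty acid oxidation) and Cyp4a14 (fatty acid hydroxylation), with a median of -0.65. Of the HNF4A targets of the proximal tubule, 12 of 15 fell, among them Slc34a1 (phosphate uptake) and Lrp2 (megalin), with a median of -1.79. Of the vitamin D receptor targets, 3 of 7 fell (Cyp24a1, Slc34a3 and Trpv5). Of the gluco- and mineralocorticoid targets, Fkbp5 and Sgk1 fell among 12, and of the core clock genes, Ciart and Hlf among 14. The thyroid hormone system had 2 falls in 8 genes (Dio1 and Thrap3), the ERR targets 1 in 11 (Acadm), and the bile acid receptor targets 1 in 5 (Slc51b). No oxysterol receptor target of 9 and no retinoic acid gene of 5 passed the threshold there. These counts stand beside 9.53% of all genes lower in H3K9cr at gene ends. Over the whole gene, beside 13.8% of all genes, 3 of 11 oxysterol receptor targets (Abcg5, Abcg8 and Lpcat3) were lower. So were 4 of 18 coregulators (Ncoa3, Ncoa4, Ppargc1a and Ppargc1b) and no retinoic acid gene of 9. No gene of these lists was higher. Several genes are in more than 1 list.

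For H3K9ac at gene ends, the falls in the same lists stand beside 26.5% of all genes lower. There were 11 of 17 PPARα targets, 11 of 15 HNF4A targets, 8 of 11 ERR targets (among them Cs, Idh3a and Sdhb of the citric acid cycle), 8 of 14 clock genes (among them Per2, Cry1 and Dbp), 7 of 18 coregulators (among them Ppargc1a, the coactivator of mitochondrial genes), 5 of 12 gluco- and mineralocorticoid targets and 4 of 8 thyroid hormone genes. A further 2 of 7 vitamin D receptor targets, 2 of 9 oxysterol receptor targets, 2 of 5 bile acid receptor targets and 1 of 5 retinoic acid genes fell, and no gene of any list rose. The median was -0.88 for the PPARα targets (-0.40 after centring), -1.51 for the HNF4A targets (-1.03) and -0.35 for the coregulators (0.13).

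Markers of the cell types of the kidney moved in the same libraries. The counts below stand beside 9.53% of all genes lower and 2.6% higher in H3K9cr at gene ends. For H3K9ac these shares were 26.5% and 0.258%, so a few falls in a short list can lie near the share of all genes. At gene ends, 8 of 12 proximal tubule markers fell in H3K9cr and none rose, and the summed coverage of the list was 7.15 to 13.6 kb in UUO against 30.02 to 49.5 kb in control libraries. For H3K9ac it was 6.48 to 14.5 against 29.7 to 40.5 kb. Cubn, Lrp2, Slc22a6, Slc22a8, Slc34a1 and Slc5a12 are in this list and among the HNF4A targets above, so the 2 lists are not separate results. Of 13 leukocyte markers tested, 7 rose in H3K9cr (C1qa, C1qb, C1qc, Cd74, Lyz2, Ptprc and Tyrobp), with 19.0 to 45.9 kb in UUO against 5.24 to 6.71 kb in control libraries, while Itgam and S100a8 were among those at 0 in all libraries. For H3K9ac, 4 leukocyte markers rose. Of 10 distal nephron markers, 3 fell in H3K9cr (10.1 to 16.2 against 17.5 to 28.7 kb) and 4 in H3K9ac, and Pvalb was at 0. Of 9 injured tubule markers, Clu, Lcn2 and Vcam1 rose in H3K9cr, and for H3K9ac Vcam1 rose and Krt8 fell. Of 10 stroma markers, Col1a1 rose in H3K9cr and Tagln fell in H3K9ac, of 8 endothelial markers, Cdh5 fell in H3K9cr and 3 fell in H3K9ac, and of 4 podocyte markers, none passed in H3K9cr and Podxl fell in H3K9ac. Of 4 markers listed for other tissues, Myh6 fell in H3K9cr and Cd4 in H3K9ac. Cd4 is a leukocyte gene that was not counted among the leukocyte markers above. These libraries are whole kidney, so fewer cells of a type and less mark per cell cannot be told apart, and the part of the shift in cell markers in the values of Ppara, Hnf4a, Rxra, Esrrg and the other members was not tested.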

How the data were processed

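ChIP-seq peak lists of H3K9cr (8) and H3K9ac (6) from mouse kidney were used, 1 list per library. According to the methods, the authors dropped reads with adapter or of low quality, aligned the rest with Bowtie2, removed duplicates and poorly mapped reads and called peaks with MACS2, and the labels give mm10 as the build. Tool versions are not given in the sources used here. The deposited columns used hold a chromosome, a start and an end, with no count, height or q-value, so read depth is unknown and precision rests on the spread between libraries. Deeper libraries yield more and longer peaks, so coverage can follow depth as well as the mark.

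Bases covered by peaks were summed within 3 kb of either end of each RefSeq (GRCm38.p6) gene, and over the whole gene with 3 kb either side. limma (version 3.58.1, R 4.3.3; lmFit and eBayes with trend) was run on log2(bases + 500) for the 14 libraries in 8 groups, which share 1 estimate of the spread with 6 residual degrees of freedom. A gene entered with a peak in at least 2 libraries. Tests were two-sided with Benjamini-Hochberg adjustment over all genes at 0.05. A log2 difference understates the change of genes with few bases. "Centred" means that each library was set to the same median over those tested genes that had a peak in all 14 libraries. bedtools 2.31.1 and Python 3.11.15 were used, and the steps were tested on simulated data.

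The members, lists and tests were chosen with earlier results of these data known. Of the members past the threshold, with a peak in all libraries of 1 group only, or without overlap between groups, a part is given by value. The rest are named or given by counts and ranges. Annotated starts with 1 kb either side were tested as an addition after the data were seen. Alternatives were a window of 1 kb, starts only, an overlap of 50%, pseudocounts of 100 and 2000, peaks in 7 libraries, no filter, protein-coding genes, equal numbers of longest peaks, centring, a Y chromosome term, each mark fitted alone, a replicate block, and leaving out each library. The correlation of deviations between libraries of the same replicate number in the labels was between -0.171 and 0.127. This does not settle whether libraries were paired, since the numbers in the peak names differ from the labels in 4 lists. The paper states that H3K9ac was profiled in the same samples as H3K9cr, and the main fit used no pairing. Reads and RNA-seq were not analysed here.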

Additional observations from a re-analysis of the deposited data

Results flagged for a closer look

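At 4 members, H3K9cr moved in opposite directions after UUO in the 2 genotypes, with each WT UUO library above each WT control library and each ACSS2-/- UUO library below each ACSS2-/- control library. The direction was so at 6.02% of all 21746 genes at gene ends and at 5.71% of 23078 over the whole gene. The values are the UUO effect in ACSS2-/- minus that in WT kidneys on the log2 scale, tested in limma over all genes. Rara, the retinoic acid receptor α gene, had -1.51 at gene ends (SE 0.94, adjusted p = 0.642) and -0.76 over the whole gene (adjusted p = 0.667). Its gene ends covered 2512 and 2609 bases in WT control, 3064 and 2983 in WT UUO, 1756 and 3210 in ACSS2-/- control and 339 and 1129 in ACSS2-/- UUO kidneys. Nr4a1, an immediate early gene, had -0.56 at gene ends (adjusted p = 0.639) and -0.75 over the whole gene (SE 0.34, adjusted p = 0.477). Nr4a3, of the same subfamily, had -0.49 in both windows (adjusted p = 0.555 and 0.534). Rxrb had -0.30 at gene ends (adjusted p = 0.773) and -0.33 over the whole gene (adjusted p = 0.712). None of these differences passed the threshold.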

How the results depend on the processing

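The counts of members past the threshold moved with the processing. At gene ends, UUO changed H3K9cr at 7 members, and at 2 with a 1 kb window, 4 with equal numbers of longest peaks, 3 with 50% of a peak inside, 4 with peaks in at least 7 libraries, 3 over protein-coding genes, 4 at starts only and 0 without the filter. It was 2 to 8 with a library left out. For H3K9ac, the 11 members were 6 with 1 kb, 5 with a Y chromosome term, 2 with the mark fitted alone, 7 with equal peaks, 1 after centring, 6 without the filter and 2 to 22 with a library left out. Over the whole gene, the 9 of H3K9cr were 4 without the filter and 5 to 12 with a library left out. The 21 of H3K9ac were 12 with the Y term, 3 with the mark alone, 7 after centring, 13 without the filter and 6 to 28 with a library left out. Between the marks, the 4 at gene ends were 1 with 1 kb, 8 after centring, 1 without the filter, 2 at starts only and 1 to 8 with a library left out, and the 10 over the whole gene were 6 with equal peaks, 5 without the filter and 4 to 11. The counts of 0 became 1 for genotype in H3K9cr after UUO with equal peaks (Hnf4a), for the difference of its UUO effect between genotypes (Hnf4a again), for genotype in H3K9cr of control kidneys with 1 kb (Esrrb), 50% (Esrra) and a pseudocount of 100 (Esrrb), and for the difference between marks without the filter at gene ends (Rorb) and after centring over the whole gene (Thrb). Leaving out a library gave 0 to 7 for the difference between marks, 0 to 1 for genotype in control kidneys, and 0 to 0 for genotype after UUO in each mark and for the UUO effect between genotypes.

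The replicate block used the replicate numbers of the labels. It gave 3 members for UUO in H3K9cr and 6 in H3K9ac at gene ends. Between the marks it gave 2 at gene ends and 5 over the whole gene. It moved no other count of calls by over 1.5 times.

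Direction was kept in all but 5 of 1532 values over 62 calls, of which 1045 were past the threshold and 482 were not. Esrra turned to 0.080 in H3K9cr with 50% of a peak inside, and Rxra to 0.0074 after centring and to 0.56 with 50% inside, in H3K9ac at gene ends. Hnf4a turned to -0.062 between the marks at starts only, and Nr1h3 to 0.038 in H3K9ac over the whole gene after centring. The cause was not tested. Genes without a peak in most libraries enter without the filter, and no read depth was known.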
